A study of Homo sapiens with 6 samples.

Results

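HES1, a transcriptional repressor that is the best known direct target of Notch signalling, was followed together with 9 other genes of the pathway in SK-BR-3 cells. The set of 10 genes, of 30327 in the count table, was chosen by gene symbol around the lower level of HES1 in the cells given an siRNA against GRB2. It held the ligands JAG1 and JAG2, the receptors NOTCH1, NOTCH2 and NOTCH3, the DNA-binding protein RBPJ, and the targets HES1, HES4, HEY1 and NRARP. The change of HES1 was what the choice rested on, so it is given below as a description and without a test.

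SK-BR-3 is an established breast cancer line that overexpresses the receptor tyrosine kinase HER2, and GRB2 is an adaptor protein that couples such receptors to RAS. Poly(A) RNA was sequenced in 6 libraries, 3 from cells transfected with a nontargeting control siRNA (si_NC) and 3 from cells transfected with an siRNA against GRB2 (si_GRB2). The descriptions of the treated libraries name si_GRB2, whereas their titles and genotype labels name GRB2 overexpression, so GRB2 itself was examined first. The study's methods list 1 siRNA sequence against GRB2, all libraries come from 1 cell line, and nothing in the labels says that the replicates were separate cultures, so p-values measure the spread between these libraries, which may be technical.

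Levels are given as CPM, in which the reads on a gene are divided by the TMM-scaled total of the library, and differences as log2 fold changes of si_GRB2 over si_NC with their standard error (SE). The control libraries had 124, 130 and 126 CPM of GRB2, and those labelled si_GRB2 had 27.8, 28.1 and 29.6 CPM. By the quasi-likelihood test of edgeR, adjusted after Benjamini and Hochberg over 15801 genes, this was a log2 fold change of −2.15 (SE 0.04, adjusted p = 3.87e-15). GRB2 mRNA was therefore lower, not higher, in every library whose title names overexpression, and the direction of each comparison below rests on the si_GRB2 description. Each library had 24810378 to 28532480 reads on genes. All 8 markers of luminal and HER2-positive cells were in the table, but CDH1, which encodes E-cadherin, had only 1 to 3 reads per library. The summed level of these 8 genes was 19600 to 20100 CPM in si_NC and 16400 to 17000 CPM in si_GRB2, with 6 genes lower and 1, ERBB2, higher. Summed markers of fibroblasts (4.06 to 6.28 against 4.57 to 5.21 CPM, 6 of 6 in the table) and leukocytes (1.18 to 2.07 against 0.874 to 1.34 CPM, 5 of 5 in the table) were low in both groups, with PTPRC at 0 to 1 reads. Summed endothelial markers, 4 of 4 in the table, were 29.0 to 30.9 CPM in si_NC and 17.5 to 21.4 CPM in si_GRB2. Nearly all of this was CDH5, while the defining markers PECAM1 and KDR had 0 to 1 and 0 to 2 reads per library.

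Notch receptors are single-pass membrane proteins that are activated by ligands on neighbouring cells. Binding exposes the receptor to ADAM proteases and then to γ-secretase, which frees the intracellular domain to enter the nucleus. There it binds RBPJ and a Mastermind-like coactivator, which turns RBPJ from a repressor into an activator of genes such as HES1, HEY1 and NRARP. In mammary epithelium the pathway takes part in luminal cell fate, and HES and HEY proteins in turn repress differentiation genes and, in the case of HES1, its own gene.

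The promoters of HES1 and HES4, the targets with the clearest differences here, and of NRARP are shown as the 150 bases before the RefSeq start (GRCh38.p14), each 5′ to 3′ on the strand of its gene. HES1 is read from chr3:194135998-194136147 on the plus strand, HES4 from chr1:1000098-1000247 on the minus strand and NRARP from chr9:137302272-137302421 on the minus strand, and GENCODE places a start of HES4 further upstream. Capitals mark GTGGGAA and TTCACAC, the latter being GTGTGAA read from the other strand, which are forms of the RBPJ recognition sequence.
HES1: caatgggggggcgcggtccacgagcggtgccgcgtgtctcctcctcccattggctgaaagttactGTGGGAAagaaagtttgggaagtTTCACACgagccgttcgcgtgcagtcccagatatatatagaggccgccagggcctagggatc
HES4: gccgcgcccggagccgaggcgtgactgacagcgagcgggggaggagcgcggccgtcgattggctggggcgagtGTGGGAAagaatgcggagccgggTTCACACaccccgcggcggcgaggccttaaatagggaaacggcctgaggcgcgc
NRARP: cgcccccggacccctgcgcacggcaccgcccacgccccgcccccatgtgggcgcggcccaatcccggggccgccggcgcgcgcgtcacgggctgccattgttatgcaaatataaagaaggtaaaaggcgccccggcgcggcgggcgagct

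In HES1 the GTGGGAA match lay 85 to 79 bases before the start and the facing GTGTGAA match 62 to 56 bases before it. In HES4 the same 2 matches lay 77 to 71 and 54 to 48 bases before the RefSeq start. The start that GENCODE gives HES4, at chr1:1000172, falls within the GTGGGAA match, and the GTGTGAA match lies downstream of it. The distance from the start of one match to the start of the other was 23 bases in both genes. Over the 250 bases before each of 35116 RefSeq starts, searched on both strands, GTGGGAA was present in 5.43% of windows and GTGTGAA in 2.48%. A facing pair within 40 bases was present in 6 windows, or 0.0171%, which were those of HES1, HES4, FST, RPGRIP1, FAM81B and an uncharacterised locus. The spelling of the motifs was settled after the windows of HES1 and HES4 had been read, so these shares describe the genome and test nothing. The windows of NRARP, JAG1, JAG2, NOTCH1, NOTCH2 and NOTCH3 held neither motif, and 1 of the 5 windows of RBPJ held 2 copies of GTGGGAA. Other forms of the RBPJ sequence and sites outside these windows were not searched for, so RBPJ sites in these genes are not excluded. The N-box CACNAG, a sequence that HES proteins recognise, was present in 32% of all windows. It had 3 matches in that of HES1, of which the one 58 to 53 bases before the start overlapped the GTGTGAA match. The window of HES4 had no match to CACNAG, and no other sequence bound by HES proteins was searched for. Of the 10 genes, 9 had a promoter in the table, the exception being HEY1.

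HES1 (ENSG00000114315.4, chr3:194136148-194138732, plus strand) was lower in all 3 si_GRB2 libraries than in any si_NC library. It had 66.0, 66.3 and 68.2 CPM in si_NC, from 1852, 1689 and 1914 reads. In si_GRB2 it had 44.5, 42.2 and 46.2 CPM, from 1121, 1160 and 1170 reads. The groups were separated by a gap that was wider than the spread within either of them, and the means were 66.85 ± 1.208 CPM and 44.34 ± 1.997 CPM (SD, n = 3 each). HES1 thus had a log2 fold change of −0.59 (SE 0.04), a 1.51-fold lower level. Since the set was chosen on this change, these values are a description and test nothing. In the deposited FPKM, which are also scaled by gene length, HES1 had 24.98, 25.6 and 27.69 in si_NC and 17.35, 17.35 and 18.76 in si_GRB2. The fold limit of 1.5 that the study set for differential expression is 0.58 on the log2 scale, so HES1 lay just inside it, and NRARP at 0.44 and HES4 at 0.38 were the nearest genes of the set outside it. HES1 lay outside the limit without si_GRB2 replicate 2, at −0.56, and just outside it without si_NC replicate 3, at −0.58. It also lay outside the limit with library totals in place of TMM factors, at −0.54. The same held for limma on the deposited FPKM, at −0.55 on log2(FPKM + 0.1) and −0.53 on log2(FPKM + 1). In bulk RNA, fewer cells with HES1 transcripts and less HES1 RNA per cell cannot be told apart.

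**Figure D1:**
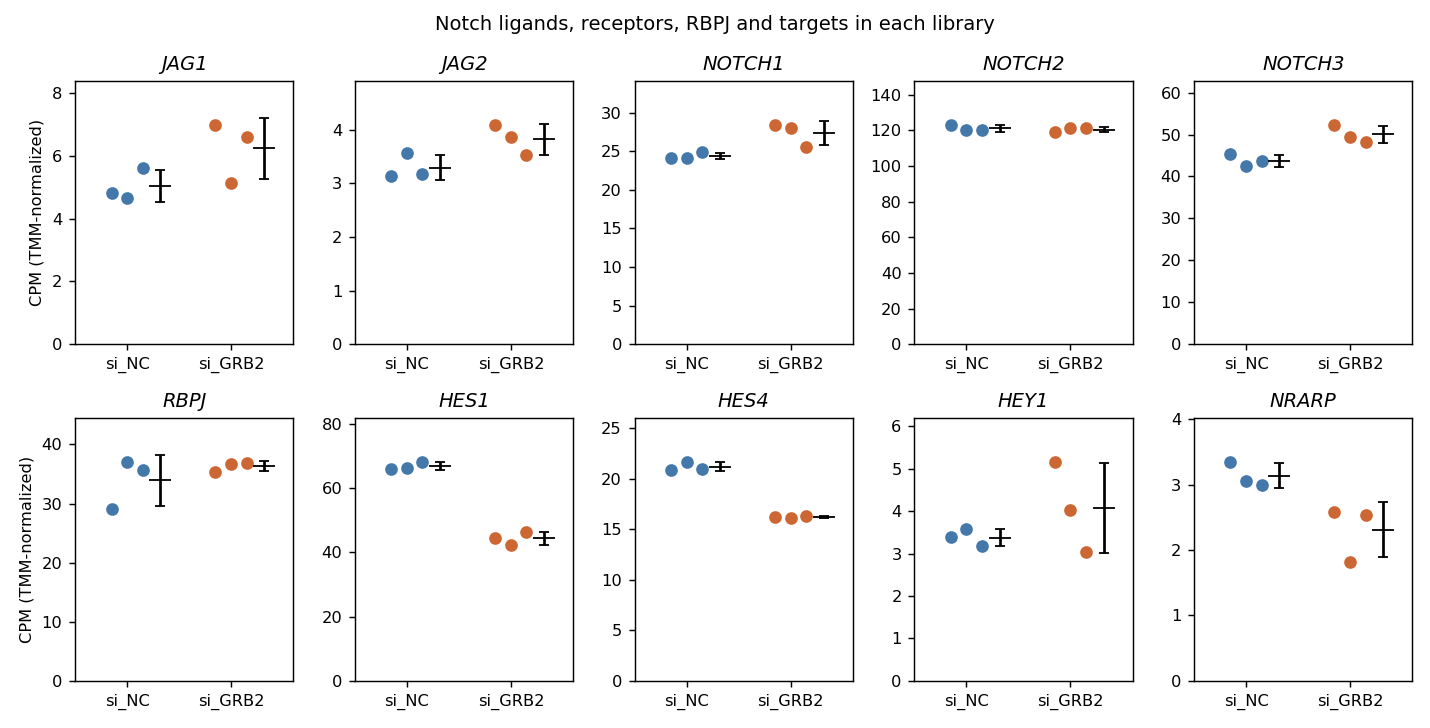
Level of each of the 10 genes in TMM-scaled CPM, with 1 point per library and the mean ± SD of the 3 libraries of each group beside the points. HES1, HES4 and NRARP lie lower in every si_GRB2 library, NOTCH1 and NOTCH3 lie higher in every one, and the other 5 genes overlap between the groups.

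HES4 (ENSG00000188290.11, chr1:998962-1000172, minus strand) encodes a repressor related to HES1 that has no counterpart in the mouse genome. Across the 6 libraries its log2 CPM followed that of HES1 more closely than those of the other 8 genes did (Pearson r = 0.99, as a description). It had 20.9, 21.7 and 21.0 CPM in si_NC and 16.2, 16.1 and 16.3 CPM in si_GRB2. No si_GRB2 library reached the lowest si_NC library. HES4 fell by 0.38 on the log2 scale (SE 0.06, 95% confidence interval −0.50 to −0.27), or by 23.4%, with an adjusted p of 6.72e-05 in the edgeR fit. The ratio of HES1 to HES4 in FPKM was 1.71 ± 0.0545 in si_NC and 1.48 ± 0.0582 in si_GRB2 (SD, n = 3 each).

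NRARP (ENSG00000198435.4, chr9:137299631-137302271, minus strand), an ankyrin-repeat protein that binds the nuclear Notch complex and limits it, was measured from few reads. It had 94, 78 and 84 reads in si_NC and 65, 50 and 64 reads in si_GRB2, or 3.35, 3.06 and 2.99 against 2.58, 1.82 and 2.53 CPM. The libraries of the groups did not overlap, but the log2 fold change of −0.44 (SE 0.17, 95% confidence interval −0.81 to −0.08) had an adjusted p of 0.0606 in the edgeR fit and missed the threshold of 0.05. Without si_GRB2 replicate 2 it was −0.29 (adjusted p = 0.257).

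HEY1 (ENSG00000164683.18, chr8:79762371-79767857, minus strand), a repressor of the same family as HES1, had values on both sides of the si_NC libraries. It had 3.39, 3.57 and 3.17 CPM in si_NC and 5.17, 4.04 and 3.04 CPM in si_GRB2. The si_GRB2 replicates thus differed from each other by more than the group means did, and the log2 fold change of 0.27 (SE 0.17, 95% confidence interval −0.09 to 0.64) did not pass the test (edgeR adjusted p = 0.265). It was 0.07 without si_GRB2 replicate 1 and 0.44 (adjusted p = 0.0614) without si_GRB2 replicate 3. At 77 to 130 reads per library, no difference of HEY1 was detectable. Of the 3 targets of the set besides HES1, then, HES4 passed in the lower direction and NRARP and HEY1 did not pass.

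Among the receptors, NOTCH3 (ENSG00000074181.9, chr19:15159038-15200995, minus strand) rose. It had 45.3, 42.5 and 43.6 CPM in si_NC and 52.3, 49.5 and 48.2 CPM in si_GRB2, so that every si_GRB2 library was above every si_NC library. Its log2 fold change was 0.19 (SE 0.04, 95% confidence interval 0.10 to 0.28, edgeR adjusted p = 0.0037). This is the opposite direction to that of HES1, and smaller.

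NOTCH1 (ENSG00000148400.13, chr9:136494433-136546048, minus strand) passed the threshold narrowly. It had 24.1, 24.1 and 24.9 CPM in si_NC and 28.4, 28.0 and 25.6 CPM in si_GRB2, with no overlap between the groups. The log2 fold change of 0.17 (SE 0.05, 95% confidence interval 0.05 to 0.28) had an adjusted p of 0.0269 with edgeR and 0.101 with DESeq2. The call also ended when 1 library was left out, with edgeR adjusted p of 0.104 without si_GRB2 replicate 1, 0.106 without si_GRB2 replicate 2, 0.091 without si_NC replicate 1 and 0.0932 without si_NC replicate 2.

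NOTCH2 (ENSG00000134250.20, chr1:119911553-120100779, minus strand), the receptor with the highest level, had 123, 120 and 120 CPM in si_NC and 119, 121 and 121 CPM in si_GRB2. The groups overlapped, and the log2 fold change of −0.01 (SE 0.03, edgeR adjusted p = 0.869) had a 95% confidence interval of −0.07 to 0.06. Its sign turned with the scaling of the libraries. NOTCH2 shares sequence with the NOTCH2NL genes, of which 3 were in the table with 443 reads in all, or 2.3% of the 19273 reads on NOTCH2. The ratio of NOTCH2 to NOTCH3 in FPKM was 1.31 ± 0.0293 in si_NC and 1.14 ± 0.0576 in si_GRB2. NOTCH4, the remaining receptor, had 0 to 2 reads per library.

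JAG1 (ENSG00000101384.12, chr20:10637684-10673999, minus strand) and JAG2 (ENSG00000184916.9, chr14:105140982-105168824, minus strand), the Jagged ligands, were both low. JAG1 had 4.81, 4.67 and 5.63 CPM in si_NC and 6.99, 5.13 and 6.6 CPM in si_GRB2. JAG2 had 3.14, 3.57 and 3.17 CPM in si_NC and 4.09, 3.86 and 3.52 CPM in si_GRB2. For both genes 1 si_GRB2 library lay within the range of the si_NC libraries. The log2 fold change of JAG1 was 0.30 (SE 0.14, 95% confidence interval 0.02 to 0.59, edgeR adjusted p = 0.106), and it passed only without si_GRB2 replicate 2, at 0.43 with an adjusted p of 0.0303. That of JAG2 was 0.22 (SE 0.14, 95% confidence interval −0.08 to 0.51, edgeR adjusted p = 0.279). Of the other ligands, DLL1 and the atypical ligand DLK1 had 0 to 1 reads per library, DLL4 had 1 to 12 and DLL3 had 11 to 26.

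RBPJ (ENSG00000168214.21, chr4:26163455-26435131, plus strand), through which all 3 receptors act on their targets, had 29.1, 37.1 and 35.7 CPM in si_NC and 35.4, 36.7 and 36.9 CPM in si_GRB2. The groups overlapped, with si_NC replicate 1 below the other libraries. The log2 fold change was 0.10 (SE 0.07, 95% confidence interval −0.05 to 0.25, edgeR adjusted p = 0.313). It was −0.0095 without si_NC replicate 1 and 0.16 without si_NC replicate 2.

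**Figure D2:**
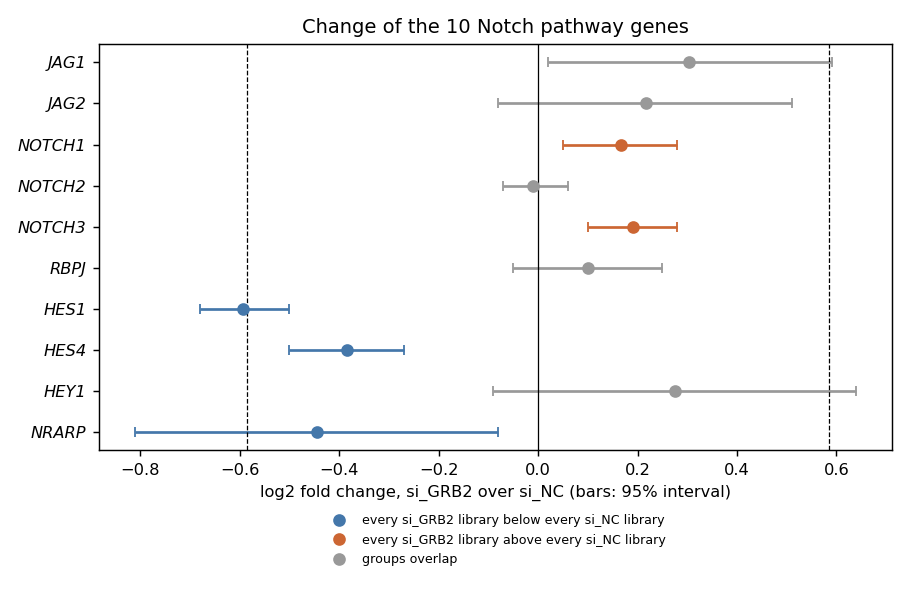
Log2 fold change of each of the 10 genes, si_GRB2 over si_NC, as points with the 95% confidence interval as bars. The bar of HES1 is a description and not a test, since the set was chosen on its change. HES1 at −0.59, HES4 at −0.38 and NRARP at −0.44 are on the lower side, NOTCH1 at 0.17 and NOTCH3 at 0.19 on the higher side, and the interval of NOTCH2 at −0.01 is the narrowest around 0.

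Of the 9 genes other than HES1, 3 passed the test, HES4 in the lower and NOTCH1 and NOTCH3 in the higher direction. Among all 15801 genes tested, 30.6% passed, 15.5% lower and 15.2% higher. The libraries of the groups did not overlap for 4 of these 9 genes and for 42.3% of all genes tested. None of the 9 passed both the 1.5-fold limit and an adjusted p under 0.01, which 2.52% of all genes did. These shares stand beside the counts as background only, since the set was chosen on the same comparison. The median log2 fold change was 0.17 over the 9 genes and 0.0 over all genes tested. No gene overlapping a member on the genome had more than 1.06% of that member's reads.

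Per gene length, the targets HES1 and HES4 stood far above the receptors and ligands. In si_NC the mean FPKM was 26.1 for HES1 and 15.2 for HES4, followed by 4.88 for NOTCH2, 3.74 for NOTCH3, 2.53 for RBPJ and 1.56 for NOTCH1. NRARP at 0.953, HEY1 at 0.493, JAG1 at 0.437 and JAG2 at 0.41 came last. The order of the means was the same in si_GRB2, where the mean FPKM was 17.8 for HES1 and 12 for HES4. Each gene was above the next in every library, except for the neighbours HEY1 and JAG1 and the neighbours JAG1 and JAG2 in both groups, and also NRARP and HEY1 in si_GRB2. The ratio of NOTCH3 to NOTCH1 was 2.39 ± 0.0914 in si_NC and 2.44 ± 0.082 in si_GRB2, which differed by less than the spread between replicates.

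**Figure D3:**
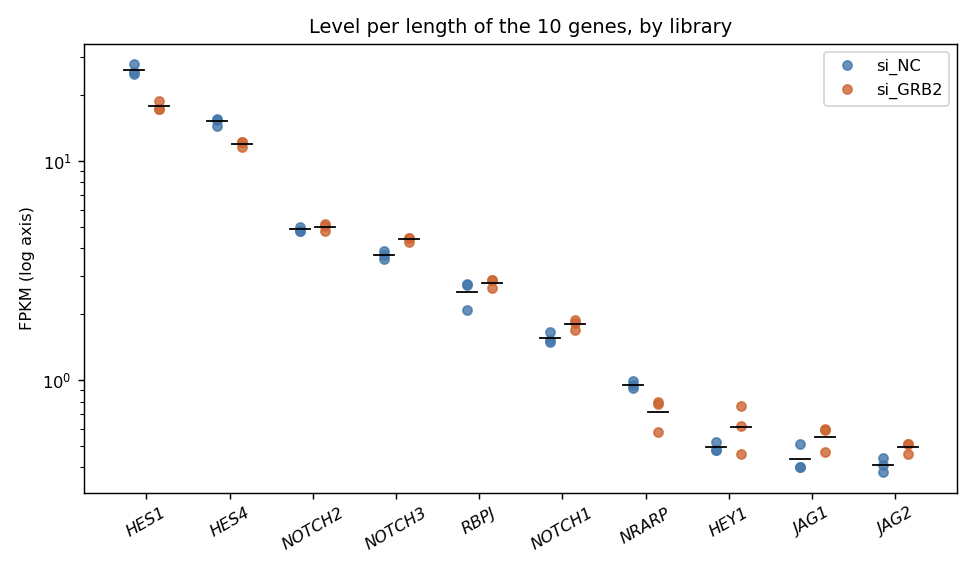
Deposited FPKM of the 10 genes on a log axis, with 1 point per library and the genes ordered by their mean in si_NC. HES1 and HES4 lie highest in both groups, and HEY1, JAG1 and JAG2 lie together at the low end.

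The wider pathway was described by a list of 78 genes, of which 77 were in the table and 66 had enough reads to test. Besides HES1, 22 of 65 tested genes passed, 10 lower and 12 higher, which is 33.8% beside the 30.6% of all genes. The libraries did not overlap for 28 of these 65 genes, beside 42.3% of all genes. The median log2 fold change of the 65 genes was 0.02, with a range from −0.78 to 0.41. The lowest value was that of DLL4, which had 1 to 12 reads per library and did not pass (SE 0.56, edgeR adjusted p = 0.331). The list moved in both directions, and only DTX3L passed both the 1.5-fold limit and an adjusted p under 0.01. Among the 19 called genes outside the set, 14 also passed by DESeq2 and in each of the 6 fits that left out 1 library. Of those 14, POGLUT1, NEDD4L, DTX4 and NEURL1B passed in none of the limma fits on FPKM, with a lowest adjusted p of 0.0879, 0.0866, 0.0754 and 0.0515. The 5 genes called with all libraries that did not pass by DESeq2 were NUMB, NUMBL, AAK1, NEDD4 and HES2, whose largest adjusted p with 1 library left out was 0.19, 0.126, 0.141, 0.169 and 0.0754. The call was lost for NUMB without si_NC replicate 1 or 3 or si_GRB2 replicate 2 or 3, and for AAK1 without si_NC replicate 1 or 2 or si_GRB2 replicate 2 or 3. For both NUMBL and NEDD4 it was lost without si_NC replicate 2 or 3 or si_GRB2 replicate 1 or 3.

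Of 8 tested enzymes that glycosylate the receptor's EGF repeats, and so tune its response to ligands, 1 fell and 1 rose, which is 25% beside the 30.6% of all genes. POGLUT1, which adds O-glucose, had 10.5, 10.8 and 9.38 CPM in si_NC and 5.84, 8.08 and 6.48 CPM in si_GRB2, a log2 fold change of −0.58 (SE 0.11, edgeR adjusted p = 0.000946). GXYLT1, which extends that glucose with xylose, rose from 23.1 ± 0.502 to 29.7 ± 1.35 CPM (SD, n = 3 each; log2 fold change 0.36, SE 0.05, edgeR adjusted p = 5.52e-05). The other 6 did not pass, LFNG among them at 0.33 (edgeR adjusted p = 0.177).

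Of the 9 genes of receptor cleavage, 3 rose and none fell, and the 33.3% called is close to the 30.6% of all genes. NCSTN, the subunit of γ-secretase that receives the substrate, rose from 113 ± 1.38 to 137 ± 4.54 CPM (log2 fold change 0.28, SE 0.03, edgeR adjusted p = 8.76e-06). PSEN2, a catalytic subunit, rose from 43.6 ± 1.32 to 52.2 ± 0.966 CPM (log2 fold change 0.26, edgeR adjusted p = 0.000154). FURIN, which cuts the receptor precursor on its way to the surface, rose by 0.21 on the log2 scale (edgeR adjusted p = 0.00238). The subunits APH1A (0.06), APH1B (0.38) and PSENEN (−0.11) and the proteases ADAM10 (0.06) and ADAM17 (0.00) did not pass. NCSTN overlaps COPA on the opposite strand, and PSEN2 lies within another gene of the same strand, each with more reads than the gene itself. The study's methods describe libraries that keep the strand, but whether the counting used it is not given in the sources used here.

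None of the 9 tested genes of the nuclear complex passed. These were RBPJ, the Mastermind-like coactivators MAML1, MAML2 and MAML3, the acetyltransferases EP300, CREBBP, KAT2A and KAT2B, and SNW1, with log2 fold changes from −0.05 to 0.10. Among 12 corepressors that can hold RBPJ or HES proteins in a repressive state, 2 fell and 2 rose, also 33.3% beside 30.6%. TLE3, a Groucho-family corepressor that HES proteins recruit, fell from 54.2 ± 0.567 to 42.6 ± 1.28 CPM (log2 fold change −0.35, SE 0.04, edgeR adjusted p = 7.51e-06). CTBP2 fell by 0.27 on the log2 scale (edgeR adjusted p = 4.23e-05), while NCOR1 rose by 0.21 (adjusted p = 0.000891) and HDAC1 by 0.16 (adjusted p = 0.00149). CTBP2 and NCOR1 overlap ZRANB1 and TTC19 on the opposite strand. Of the nuclear complex genes, SNW1 and MAML3 overlap SLIRP and MGST2 on the opposite strand, with 135% and 464% of their reads. KAT2A overlaps a gene of the same strand with 157% of its reads.

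Of 14 tested genes of endocytosis, ubiquitination and turnover, 5 were called lower and 4 higher, which is 64.3% beside the 30.6% of all genes, and the calls of NUMB, NUMBL, AAK1 and NEDD4 among them were lost with DESeq2. The Deltex-family ubiquitin ligases did not move together. DTX2 had 17.4, 15.7 and 16.9 CPM in si_NC and 21.4, 22.4 and 22.4 CPM in si_GRB2 (log2 fold change 0.41, SE 0.06, edgeR adjusted p = 6.81e-05). DTX3L had 7.13, 7.65 and 7.38 CPM in si_NC and 4.93, 4.92 and 4.82 CPM in si_GRB2 (log2 fold change −0.59, SE 0.11, edgeR adjusted p = 0.000409). DTX4 was also lower, with a log2 fold change of −0.25 (adjusted p = 0.00246). NEDD4L and NEDD4, ligases that can mark Notch for degradation, had log2 fold changes of −0.35 (adjusted p = 0.00428) and −0.26 (adjusted p = 0.0331). NEURL1B, a ligase that acts on the ligands, fell by 0.27 on the log2 scale (adjusted p = 0.00282). NUMB and NUMBL, adaptors that oppose Notch, and AAK1, a kinase that phosphorylates NUMB, had log2 fold changes of 0.13, 0.18 and 0.14 (adjusted p = 0.0473, 0.0284 and 0.0306). On the opposite strand, PARP9 and ANXA4 overlap DTX3L and AAK1 with 26.8% and 194% of their reads.

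**Figure D4:**
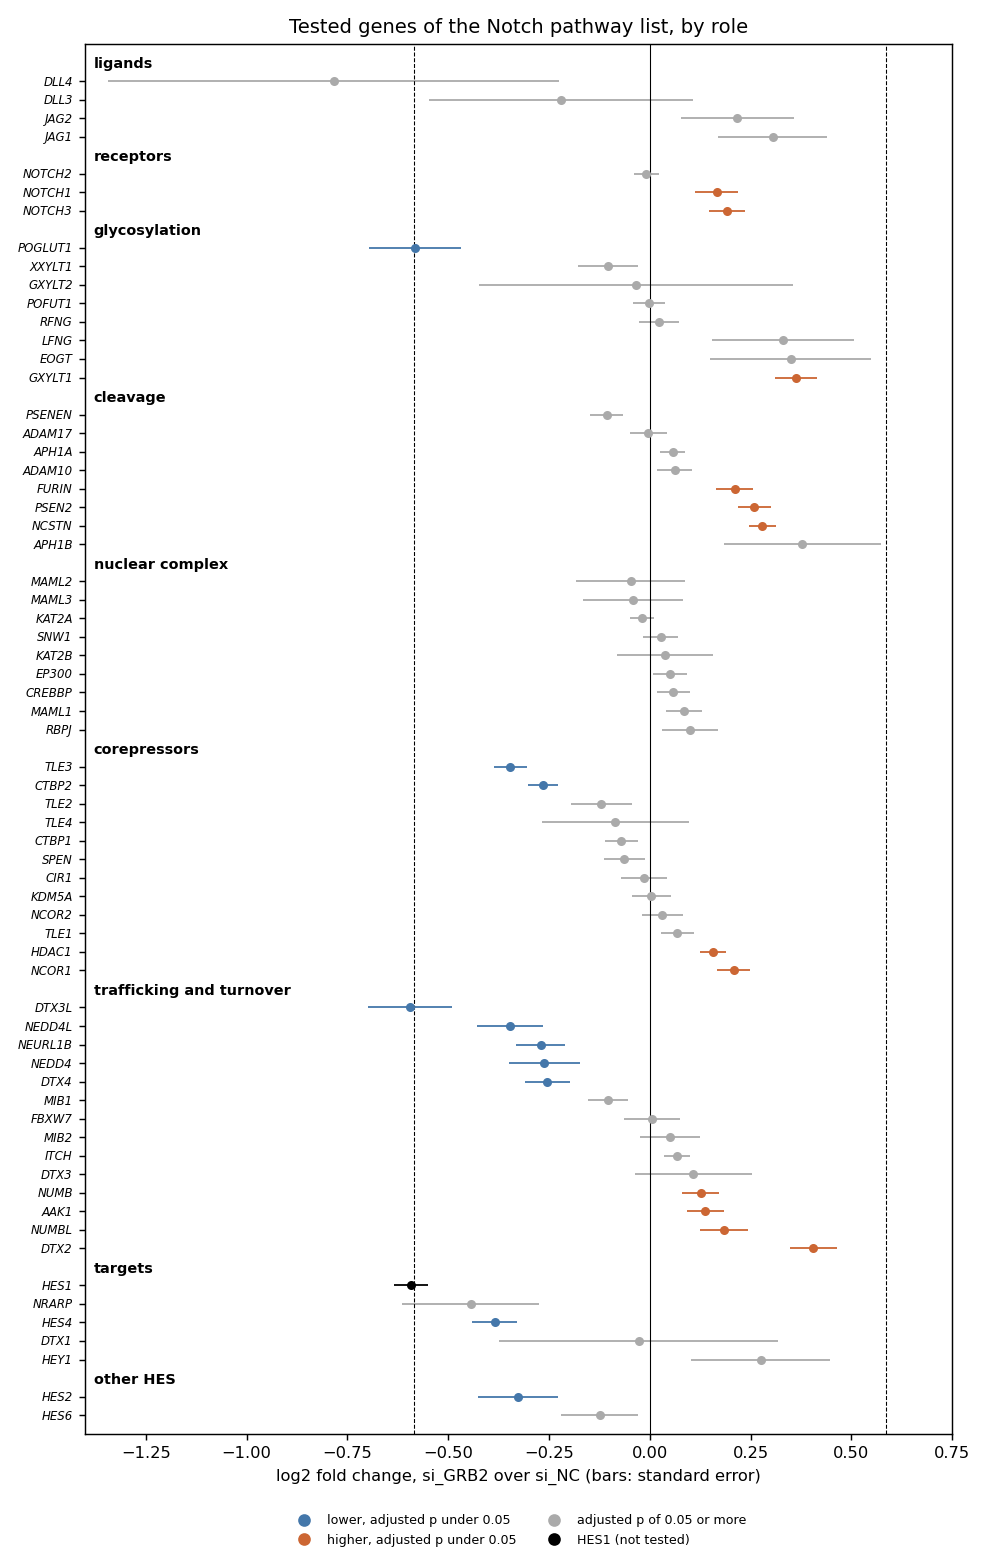
Log2 fold change, si_GRB2 over si_NC, of 65 tested genes of the pathway list, grouped by role, with the standard error as bars and the 1.5-fold limits as dashed lines. Calls fall on both sides within glycosylation, corepressors and turnover, on the higher side only for receptors and cleavage, and in neither direction for ligands and the nuclear complex.

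Outside the set, the other Notch targets of the list had few reads. HES5 had 7 to 10 reads per library, HEY2 0 to 2, HEYL 0 to 3 and DTX1 11 to 20. Only DTX1 among them was tested, and it did not pass (log2 fold change −0.03, SE 0.35, edgeR adjusted p = 0.967). HES2, HES6 and HES7 were listed as other HES genes and not as targets, and HES7 had 0 to 1 reads per library. HES2 had 7.99, 9.1 and 9.06 CPM in si_NC and 6.44, 6.99 and 7.39 CPM in si_GRB2, with no overlap and a log2 fold change of −0.33 (SE 0.10, edgeR adjusted p = 0.0193). It did not pass with DESeq2 (adjusted p = 0.0651) or when si_NC replicate 2, si_GRB2 replicate 1 or si_GRB2 replicate 2 was left out. HES6 had a log2 fold change of −0.12 (edgeR adjusted p = 0.368).

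**Figure D5:**
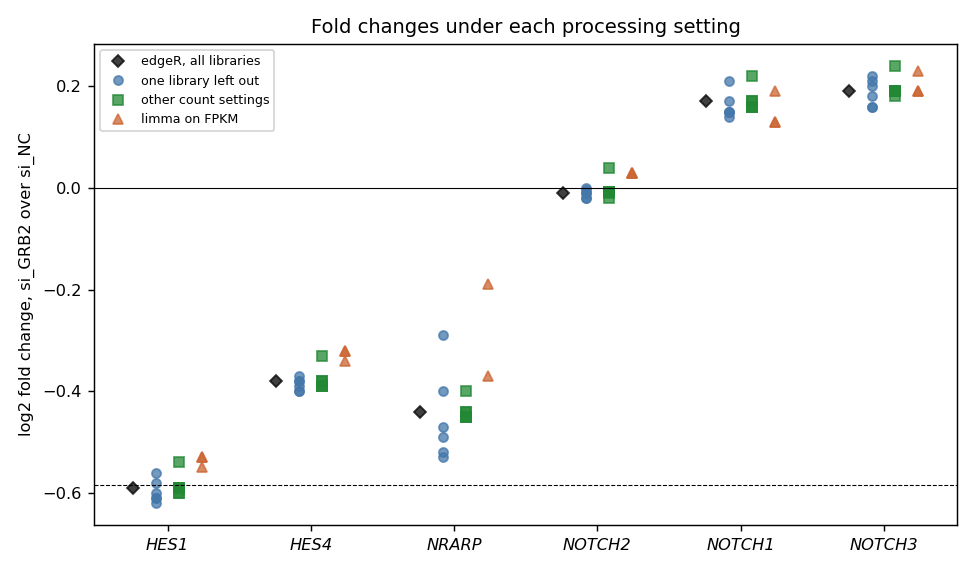
Log2 fold change, si_GRB2 over si_NC, of HES1, HES4, NRARP and the 3 receptors under each way of processing, with a diamond for edgeR with all libraries, circles for 1 library left out, squares for other settings on counts and triangles for limma on FPKM. HES1 lies between −0.62 and −0.53 and HES4 between −0.40 and −0.32, whereas the points of NOTCH2 fall on both sides of 0.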

How the data were processed

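Libraries of poly(A) RNA, 3 si_NC and 3 si_GRB2, were sequenced. The authors trimmed reads with FASTX-Toolkit, mapped them with HISAT2 to GRCh38 and retained unique alignments, and they deposited the raw read count per gene and FPKM. By the study's methods, dUTP marking of the second cDNA strand kept the strand of the RNA. The counting tool, its annotation and its use of strand are not given in the sources used here. There were 24810378 to 28532480 reads per library on genes, and genes with few reads have wider standard errors.

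With edgeR 4.0.16 in R 4.3.3, TMM factors were computed, filterByExpr kept 15801 of 30327 genes, and the groups were compared by the quasi-likelihood test with p-values adjusted after Benjamini and Hochberg over all genes kept. A call is an adjusted p under 0.05. Standard errors are log2 fold changes divided by the square root of the F statistic. CPM use TMM-scaled totals. The script was tested on simulated counts. Of the gene IDs, 99.7% were found in GENCODE 44, which gave positions and overlaps. Promoters came from RefSeq (GRCh38.p14) and were matched by symbol.

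The 10 genes, the pathway, marker and HES1-repressed lists, the rule for named genes and the tests were chosen with earlier results of these data known. The named genes are the 10 members, GRB2, every other gene of the pathway and repressed lists with an adjusted p under 0.05 and no overlap between the groups, up to the 20 largest changes, and the 5 genes with at least 5 CPM on average whose log2 CPM (prior count 2) correlated best with HES1. Genes named besides these, for a low count, a missed threshold or a marker, were chosen after their values were seen. Other settings tried were DESeq2 1.42.0, edgeR with the size factors of DESeq2, library totals without TMM, other filters, a replicate block, limma 3.58.1 on log2(FPKM + 1) and log2(FPKM + 0.1), a 1.5-fold limit, and each library left out in turn. Library totals were chosen as an alternative after seeing the data. Python 3.11.15 made the tables and figures. The values of 2 listed genes are not reported here. The files hold no columns of the authors' own comparisons.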

Additional observations from a re-analysis of the deposited data

How the results depend on the processing

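The log2 fold change of HES1 kept its direction under all alternatives run. It was −0.54 with library totals in place of TMM factors and −0.53 with limma on log2(FPKM + 1), with or without a minimum mean FPKM of 1, and −0.62 to −0.56 with 1 library left out. Of the 9 other members, 3 were called with all libraries and 2 to 3 with 1 library left out, but 0 by limma on log2(FPKM + 0.1) and 0 with the 1.5-fold limit and an adjusted p under 0.01. Limma on log2(FPKM + 0.1) gave HES4 −0.34 (adjusted p = 0.0637) and NOTCH3 0.23 (adjusted p = 0.135), and it called 505 of all genes where edgeR called 4838. Of the pathway genes besides HES1, 22 were called with all libraries, 17 to 20 with 1 library left out, 12 by limma on log2(FPKM + 1) with or without the minimum, 1 by limma on log2(FPKM + 0.1) and 1 with the fold limit. The sign of NOTCH2 turned to 0.04 with library totals and to 0.03 with each of the 3 limma fits, and that of RBPJ to −0.0095 without si_NC replicate 1, in a range of −0.0095 to 0.16 with 1 library left out. Library totals moved the median of all genes to 0.052, and the cause of the other differences was not tested. Of 131 values of single genes under alternatives, 114 kept direction and call. Of the 5 genes most like HES1, 1 was among the top 5 on log2(FPKM + 1).

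The deviations of same-numbered libraries from their group means correlated at 0.232, −0.095 and 0.08 across genes. The first of these was the highest value of any si_NC and si_GRB2 library, followed by 0.228 for si_NC replicate 3 with si_GRB2 replicate 2. With 3 libraries per group, these values cannot show whether replicate numbers pair the samples. With a replicate block, the log2 fold change of HES1 was −0.59, 4 of the 9 other members were called, NRARP being added at an adjusted p of 0.0456, and 4807 of all genes were called. JAG1, JAG2, HEY1 and NRARP had the fewest reads of the members and standard errors of 0.14 to 0.17, above those of the other members, and the part of depth in this was not tested.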

Other observations

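Of the 6 genes listed as repressed by HES1, only CDKN1B, which encodes the cell cycle inhibitor p27, had enough reads to test. It had 57.2, 58.3 and 57.4 CPM in si_NC and 64.8, 64.6 and 66.6 CPM in si_GRB2, so that every si_GRB2 library was above every si_NC library. CDKN1B rose from 57.6 ± 0.58 to 65.3 ± 1.11 CPM (SD, n = 3 each), a log2 fold change of 0.18 (SE 0.04, edgeR adjusted p = 0.00134). Among all genes tested, 15.2% were called higher, and the groups did not overlap for 42.3%. Whether the rise of CDKN1B is linked to HES1 was not tested. GPR19, on the opposite strand, had 2.52% of the reads of CDKN1B. The neurogenic gene NEUROG3 and the ligand DLL1 each had at most 1 read in any library, and ATOH1 and NEUROG2 were not in the count table.

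Over the 6 libraries, the log2 CPM of 837 of 10623 genes with a mean of at least 5 CPM correlated with that of HES1 at a Pearson r above 0.95. The libraries form 2 groups that differ in HES1, so these values largely follow the contrast and are given as a description. The closest were SHMT2, the mitochondrial serine hydroxymethyltransferase (r = 0.9991), PROCR, the endothelial protein C receptor (0.9989), TSEN34, a subunit of the tRNA splicing endonuclease (0.9987), SRA1, the steroid receptor RNA activator (0.9981), and CDCA3, a cell division cycle gene (0.9978). Their log2 fold changes were −0.22, −0.9, −0.27, −0.19 and −0.3. Among the other genes of the set, r was 0.99 for HES4, 0.85 for NRARP and 0.23 for NOTCH2, and between −0.91 for NOTCH3 and −0.4 for RBPJ for the rest.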
